A study of Mus musculus with 6 samples.

Results

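The sebaceous gland lipid genes examined here are 10 genes, Scd1, Elovl4, Fa2h, Acsbg1, Far2, Awat1, Awat2, Soat1, Mgst1 and Mc5r, chosen by symbol from a table of 16131 genes. All 10 were listed, and all 10 reached 1 FPKM (fragments counted per kilobase of transcript and scaled to the size of the library) in 3 or more libraries, the level required for testing. The RNA came from C57BL/6 skin 7 days after a wound was made, in mice whose diabetes had been induced by streptozotocin, which kills pancreatic beta cells. In 3 libraries the skin had received the recombinant growth factor FGF4 (rFGF4) at 100 ng/ml, as 10 µl a day, and in the other 3 phosphate-buffered saline (PBS), also 10 µl a day. Both groups were diabetic and wounded, so neither uninjured nor non-diabetic skin stands beside them. Neither the age of the mice nor the number of animals behind the libraries is given in the labels. The p-values therefore reflect only how much these libraries vary, and that variation may be technical.

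Sebaceous glands are outgrowths of the hair follicle whose cells, the sebocytes, fill with lipid and burst to release sebum. Sebum is rich in wax esters, triglycerides, cholesterol and cholesteryl esters, and it coats hair and skin. Its synthesis runs from fatty acids, which are desaturated, elongated or hydroxylated, through fatty alcohols to esters of those alcohols or of sterols. Several of the enzymes also work elsewhere in skin: Scd1 in fat cells, Elovl4 and Fa2h in the epidermis, and Soat1 in macrophages. In whole skin, fewer cells of a type and less RNA per cell cannot be told apart.

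The rise of 1 gene passed the test. Scd1, the stearoyl-CoA desaturase whose loss in mice shrinks the sebaceous glands, averaged 219 ± 35.2 FPKM with rFGF4 and 106 ± 9.93 FPKM with PBS (SD, n = 3 each). Far2, Elovl4 and Fa2h also had every rFGF4 library above every PBS library, with ratios of means between 1.81 and 2.14, but did not pass. The esterifying enzymes Awat1 and Awat2, the sebocyte marker Mgst1 and the receptor Mc5r had overlapping groups. Transcript length is given beside these values because longer transcripts had higher fold changes in these libraries: over 14191 genes, no independent replicates, Spearman's rho with length was 0.502.

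Sequence from before the transcription start is shown for 4 of the genes: Far2 and Elovl4, whose groups separated, and Awat1 and Awat2, the neighbouring wax ester synthase genes, whose groups overlapped. Each is the 250 bases before the start that RefSeq gives on GRCm38.p6 (where it gives several, the one nearest the GENCODE start), 5′ to 3′ in the direction of transcription. Capitals mark matches, on either strand, to 3 short promoter elements. The TATA-like box was searched as TATANA. The second element, the site of the factor NF-Y, was searched as CCAAT. The GC box, which Sp1 binds, was searched as GGGCGG.
Far2, chr6:148047166-148047415, plus strand: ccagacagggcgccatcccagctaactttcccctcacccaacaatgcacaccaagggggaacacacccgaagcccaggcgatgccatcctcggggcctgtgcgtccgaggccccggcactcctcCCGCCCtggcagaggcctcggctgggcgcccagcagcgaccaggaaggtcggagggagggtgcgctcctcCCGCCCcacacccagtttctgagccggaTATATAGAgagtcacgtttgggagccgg
Elovl4, chr9:83806306-83806555, minus strand: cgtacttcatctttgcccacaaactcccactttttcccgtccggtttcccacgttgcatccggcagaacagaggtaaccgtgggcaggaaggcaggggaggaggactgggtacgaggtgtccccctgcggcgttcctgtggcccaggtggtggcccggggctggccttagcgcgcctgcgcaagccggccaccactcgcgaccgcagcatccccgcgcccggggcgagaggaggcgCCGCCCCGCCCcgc
Awat1, chrX:100571997-100572246, plus strand: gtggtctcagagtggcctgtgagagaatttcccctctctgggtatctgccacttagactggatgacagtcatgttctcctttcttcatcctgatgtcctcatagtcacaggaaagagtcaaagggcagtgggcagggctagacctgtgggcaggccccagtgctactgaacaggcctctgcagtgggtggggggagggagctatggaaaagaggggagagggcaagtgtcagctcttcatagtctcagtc
Awat2, chrX:100442718-100442967, minus strand: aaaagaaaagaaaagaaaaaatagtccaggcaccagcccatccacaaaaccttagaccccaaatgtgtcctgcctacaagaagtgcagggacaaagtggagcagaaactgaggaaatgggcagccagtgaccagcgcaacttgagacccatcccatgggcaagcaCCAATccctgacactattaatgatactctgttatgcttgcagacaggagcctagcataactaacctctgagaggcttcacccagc
Far2 holds GC boxes and a pair of overlapping TATANA matches that begin 28 and 26 bases before the start. Elovl4 holds a pair of GC boxes that share a base, within 14 bases of the start. Awat2 has a CCAAT match, and the Awat1 window has none of these letters. Of 32851 such windows in the RefSeq table, 22.6% hold TATANA, 33.8% CCAAT and 32.7% GGGCGG. The E-box CACGTG (6.02% of windows) and the sterol element letters TCACNCCAC (1.05%) were found in 0 of the 7 genes with an entry, which also include Mgst1, Soat1 and Acsbg1. A GC box was found in 3 of those 7 windows, in Far2, in Elovl4 and in Mgst1, and the groups of Mgst1 overlapped. A CCAAT box was found in 3 (Awat2, Soat1 and Acsbg1) and a TATA-like box in 1 (Far2). Whether these elements go with the fold changes was not tested. The Far2 window includes the start that GENCODE gives for the gene. Scd1 and Fa2h have no entry in that table. A match of letters is a description and shows no binding.

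Fatty acid modification is the first step. Scd1, on chromosome 19 from 44394455 to 44407879 (minus strand, GRCm38, GENCODE M21), had 183, 221 and 253 FPKM in rFGF4 replicates 1 to 3, against 95.0, 107 and 115 FPKM in PBS replicates 1 to 3. The lowest rFGF4 library lay well above the highest PBS library. Its log2 fold change was 1.04 (SE 0.17, 95% confidence interval 0.65 to 1.44, limma adjusted p = 0.0189), higher in 3 of 3 rFGF4 libraries than in any PBS library. In the authors' deposited table its q-value is 0.000101. Scd1 is 1 of 10 members called higher, where 8.46% of all 14676 tested genes were called higher, so the share of the group is close to the background. The median log2 fold change of the 10 was 0.46 and that of all tested genes 0.19.

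The Scd1 call depended on single libraries and on the length trend. It was kept without rFGF4 replicate 1 (limma adjusted p = 0.0278) or 2 (0.0420), and lost without rFGF4 replicate 3 (0.0569), PBS replicate 1 (0.0827), PBS replicate 2 (0.0764) or PBS replicate 3 (0.0565). With the length trend removed the log2 fold change was 0.68 and did not pass (adjusted p = 0.118). The Scd1 transcript has 4832 bases, and tested genes within 20% of that length had a median of 0.34, with 14.2% of them called higher. Its nearest relatives share stretches of sequence, with 3.03% of its 50-base words also found in Scd2, 3.49% in Scd3 and 1.76% in Scd4. How the authors counted reads that fit more than 1 of them is not given in the sources used here.

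Elovl4, the elongase that makes very long-chain fatty acids for the skin barrier and sebum, lies on chromosome 9 from 83778692 to 83806277 on the minus strand. It had 121, 109.8 and 193 FPKM in the rFGF4 libraries and 54.9, 81.0 and 92.5 FPKM in the PBS libraries. The groups did not overlap, and rFGF4 replicate 3 stood highest. The log2 fold change of 0.88 (SE 0.28, 95% confidence interval 0.21 to 1.55) did not pass the adjusted threshold (limma adjusted p = 0.0846). Fa2h, which adds a hydroxyl group to fatty acids, lies on chromosome 8 from 111345135 to 111393824 on the minus strand. Its level was 51.2, 52.3 and 86.8 FPKM with rFGF4, against 25.6, 32.0 and 47.7 FPKM with PBS. Here too the groups were apart, by a narrow margin between rFGF4 replicate 1 and PBS replicate 3, and the log2 fold change was 0.86 (interval 0.15 to 1.56, limma adjusted p = 0.101).

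Acsbg1 encodes an acyl-CoA synthetase of the bubblegum family, which activates long-chain fatty acids. The gene is on chromosome 9 from 54604877 to 54661870, minus strand. Its rFGF4 libraries had 23.9, 38.8 and 51.2 FPKM and its PBS libraries 27.1, 30.7 and 35.5 FPKM. The rFGF4 libraries fell on both sides of the PBS range, and the log2 fold change of 0.23 had an interval of -0.44 to 0.89 (limma adjusted p = 0.625).

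Fatty alcohols for wax esters come from fatty acyl-CoA reductases. Far2, on the plus strand of chromosome 6 (148047259 to 148182758), had 14.9, 16.1 and 25.0 FPKM with rFGF4 and 5.59, 9.10 and 11.5 FPKM with PBS. Its groups did not overlap, and its log2 fold change of 1.11 was the highest of the 10 (SE 0.31, 95% confidence interval 0.38 to 1.84). It missed the threshold in the limma fit (adjusted p = 0.0592), and the q-value in the authors' deposited table is 0.0512. With the length trend removed its log2 fold change was 0.82 (adjusted p = 0.284). The antisense genes Far2os1 and Far2os2 and the coding gene Ergic2 overlap Far2 on the opposite strand, and whether counting used the strand is not stated.

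Esterification is carried out by Awat1 and Awat2, acyltransferases that join fatty acids to wax alcohols, and by Soat1, which makes cholesteryl esters. Awat1, on chromosome X from 100572251 to 100578205 (plus strand), had 2.82, 5.48 and 11.9 FPKM with rFGF4 and 2.76, 5.23 and 5.80 FPKM with PBS. Only rFGF4 replicate 3 lay above the PBS range. Its log2 fold change of 0.37 had an interval of -0.88 to 1.63 (limma adjusted p = 0.675) and was -0.15 without rFGF4 replicate 3.

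Awat2, on the minus strand of chromosome X from 100402221 to 100442717, measured 1.27, 2.41 and 3.39 FPKM in rFGF4 libraries and 1.89, 1.87 and 2.06 FPKM in PBS libraries. The PBS libraries were close together and the rFGF4 libraries lay on both sides of them, with a log2 fold change of 0.16 (interval -0.64 to 0.96, limma adjusted p = 0.778). The transcripts of Awat1 and Awat2 share 0 words of 50 bases. Soat1, on chromosome 1 from 156424525 to 156474331 (minus strand), had 13.5, 17.7 and 19.9 FPKM with rFGF4, against 9.63, 10.5 and 14.9 FPKM with PBS. Its groups overlapped in rFGF4 replicate 1 and PBS replicate 3, and its log2 fold change of 0.55 did not pass (interval 0.04 to 1.06, limma adjusted p = 0.131). Its transcript of 8371 bases is the longest of the 10. Tested genes within 20% of that length had a median of 0.43, and with the length trend removed Soat1 was at 0.10.

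Mgst1, a microsomal glutathione S-transferase that detoxifies lipid peroxides and marks sebocytes in mouse skin, lies on the plus strand of chromosome 6 (138140316 to 138156755). It had 36.3, 63.4 and 63.9 FPKM in rFGF4 libraries and 39.4, 57.5 and 58.5 FPKM in PBS libraries. The groups covered nearly the same range, and the log2 fold change was 0.05 with an interval of -0.60 to 0.70 (limma adjusted p = 0.921). Mc5r, the melanocortin receptor through which pituitary peptides raise sebum output in mice, is on chromosome 18 from 68337596 to 68342446 (plus strand). It measured 0.633, 1.97 and 1.54 FPKM with rFGF4 and 1.34, 0.725 and 1.35 FPKM with PBS, the lowest level of the 10. Its groups overlapped (log2 fold change 0.18, interval -0.88 to 1.23, limma adjusted p = 0.823).

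**Figure D1:**
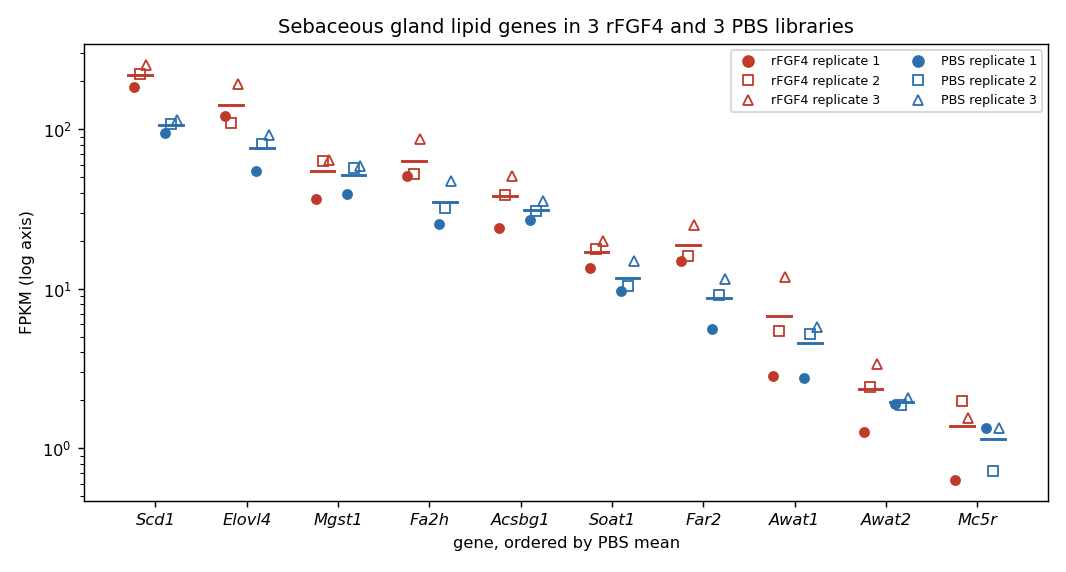
FPKM (log axis) of the 10 genes, ordered by their PBS mean, in 3 rFGF4 libraries (red) and 3 PBS libraries (blue), with bars at the group means. Scd1, Elovl4, Fa2h and Far2 have all rFGF4 points above all PBS points, and the other 6 genes overlap.

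FPKM are per length, so levels can be set beside each other, but only roughly. The length trend between the groups remains in these levels. With rFGF4 the order by mean was Scd1, Elovl4, Fa2h, Mgst1, Acsbg1, Far2, Soat1, Awat1, Awat2 and Mc5r. In those libraries the ranges of the neighbours Elovl4 and Fa2h did not overlap, nor did those of Soat1 and Awat1. The ranges of every other pair of neighbours overlapped. Read library by library, the order of neighbours held in each rFGF4 library except between Fa2h and Mgst1 and between Far2 and Soat1. With PBS the order was Scd1, Elovl4, Mgst1, Fa2h, Acsbg1, Soat1, Far2, Awat1, Awat2 and Mc5r. The neighbours whose ranges stood apart there were Scd1 and Elovl4, Acsbg1 and Soat1, Awat1 and Awat2, and Awat2 and Mc5r. Read library by library, the order of neighbours held in each PBS library except between Fa2h and Acsbg1. The summed level of the 10 was 449 to 710 FPKM in rFGF4 libraries and 263 to 384 FPKM in PBS libraries, most of it from Scd1 and Elovl4.

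All 10 log2 fold changes were positive, as were 69.8% of those of all tested genes, but Mgst1, Awat2 and Mc5r turned negative with median-centred libraries, Awat2 with quantile normalization, and Mc5r and Acsbg1 with the length trend removed. Median-centring placed the median of all tested genes at 0.01 in place of 0.19, and the share of calls that were higher at 18.3% in place of 70.0%. The share was 31.4% with quantile normalization and 25.2% with the length trend removed. Relative to the median of all genes, Scd1 was at 0.86 with median-centred libraries and stayed called (limma adjusted p = 0.0361). In 4 of the 10 the rFGF4 libraries all lay above the PBS libraries, and in 0 below, where 30.9% of all tested genes were separated upward and 7.36% downward. An unadjusted p under 0.05 was reached by 5 of the 10, Scd1, Far2, Elovl4, Fa2h and Soat1, beside 32.1% of all tested genes. No member was called lower, beside 3.62% of all tested genes.

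**Figure D2:**
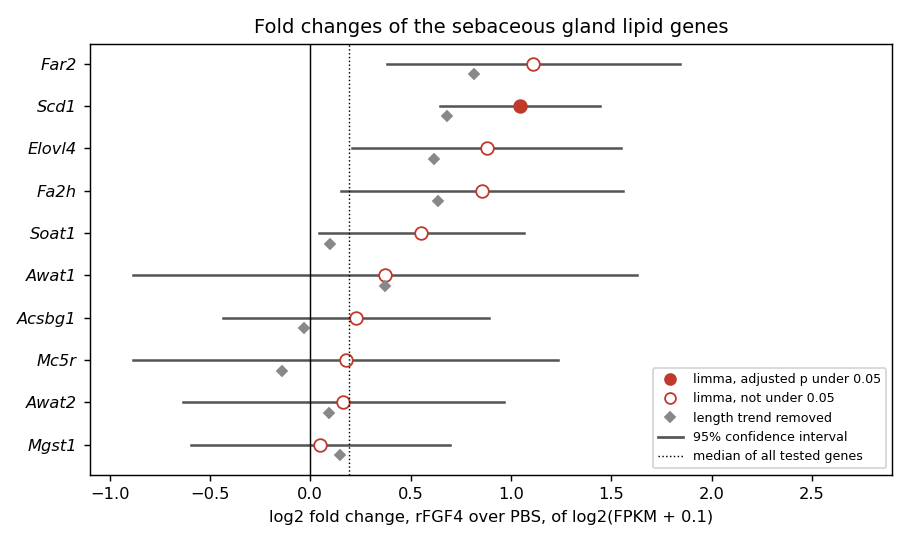
Log2 fold change (rFGF4 over PBS, of log2(FPKM + 0.1)) of each gene with its 95% confidence interval, and grey diamonds for the value with the length trend removed. The intervals of Scd1, Far2, Elovl4, Fa2h and Soat1 lie above 0, those of the other 5 include 0, and only Scd1 passes after adjustment over all genes.

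Single libraries moved the genes together. Within the rFGF4 group, replicate 3 was highest for 9 of the 10, Mc5r being the exception, and replicate 1 was lowest for 9, with Elovl4 the exception. Within the PBS group replicate 3 was highest for all 10 and replicate 1 lowest for 8, with Awat2 and Mc5r lowest in replicate 2. As deviations from each gene's mean, the median of the 10 was -0.26, 0.25 and 0.72 in rFGF4 replicates 1 to 3, and -0.60, -0.36 and 0.07 in PBS replicates 1 to 3, in log2 units. By this median, rFGF4 replicate 1 lay below PBS replicate 3. The median log2 fold change of the 10 was 0.24 without rFGF4 replicate 3 and 0.79 without rFGF4 replicate 1.

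**Figure D3:**
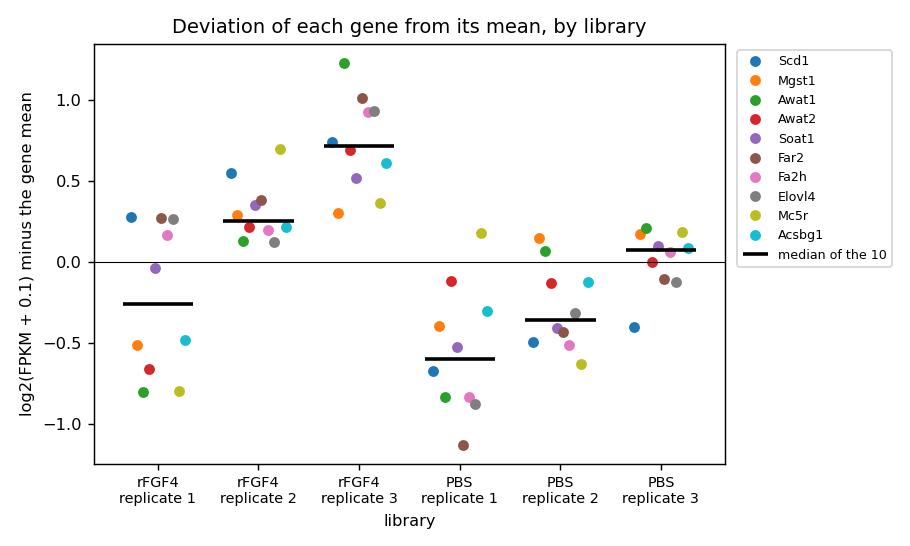
Deviation of log2(FPKM + 0.1) from the gene's mean over 6 libraries, for each of the 10 genes (points) and their median (bars), by library. The rFGF4 median bars lie at -0.26, 0.25 and 0.72 and the PBS bars at -0.60, -0.36 and 0.07.

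The spread differed among the genes. The ratio of the highest to the lowest rFGF4 library was 4.2 for Awat1, 3.11 for Mc5r and 2.67 for Awat2, and 1.38 for Scd1. Among PBS libraries it was 2.10 for Awat1, 2.06 for Far2, 1.21 for Scd1 and 1.10 for Awat2. For Far2 the ratio among rFGF4 libraries was 1.68. Scd1 had a narrow spread in both groups, and that of Far2 was wide among PBS libraries.

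**Figure D4:**
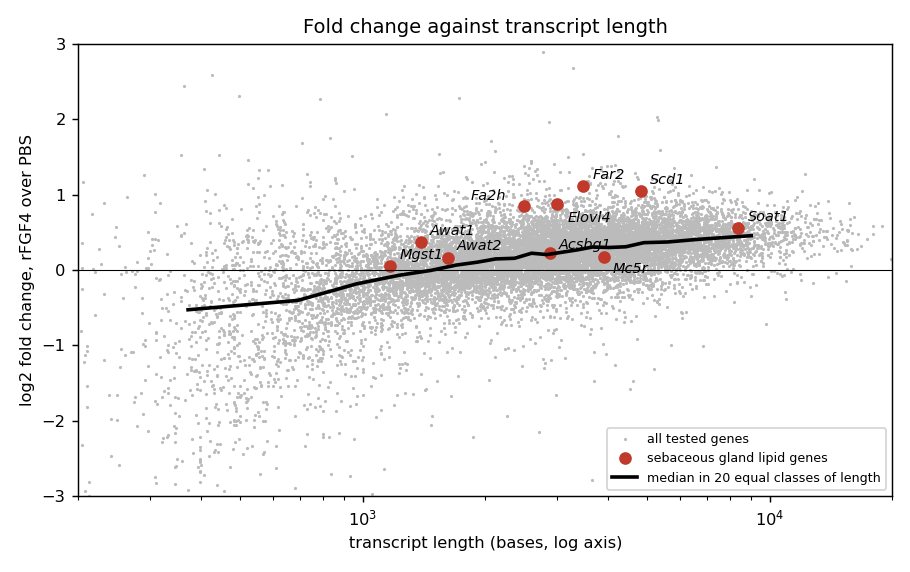
Log2 fold change (rFGF4 over PBS) against annotated transcript length (log axis) for tested genes with a length (grey; 216 of 14191 lie outside the axes), their median in 20 classes of length (line) and the 10 sebaceous gland lipid genes (red). Scd1, Far2, Elovl4 and Fa2h lie above the line, while Acsbg1 and Mc5r lie on or under it.

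Transcript lengths of the 10 ran from 1167 bases in Mgst1 to 8371 in Soat1, and short and long members sat on different parts of the trend. Awat1 with 1390 bases and Awat2 with 1619 bases belong to lengths where the median gene was at -0.02 and 0.05. Their own values were 0.37 and 0.16, and 0.37 and 0.09 with the trend removed, with overlapping groups. Far2 (3480 bases), Elovl4 (3001 bases) and Fa2h (2492 bases) belong to lengths with medians of 0.27, 0.23 and 0.18, below their own values of 1.11, 0.88 and 0.86. With the trend removed these 3 were at 0.82, 0.61 and 0.64, and their adjusted p lay between 0.284 and 0.369. In that setting 0 of the 10 were called by limma in either direction, beside 0.543% of 14191 genes called higher and 1.61% called lower. The 10 then had a median of 0.26, beside -0.02 for all genes.

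Other genes of sebocyte identity and regulation had 0 of 14 tested members higher and 1 lower (median log2 fold change 0.20). Beside them, 8.46% of all tested genes were called higher and 3.62% lower. Krt79, a keratin of the sebaceous duct and gland, had 62.0, 65.8 and 92.8 FPKM with rFGF4 and 66.3, 141 and 50.3 FPKM with PBS. Plin2, the coat protein of lipid droplets, averaged 53.4 ± 18.05 FPKM with rFGF4 and 55.1 ± 16.6 FPKM with PBS (SD, n = 3 each; limma adjusted p = 0.922). Both overlapped between groups. Pparg, the nuclear receptor that drives lipid filling of sebocytes and fat cells, had 5.57, 5.50 and 5.03 FPKM with rFGF4, against 3.01, 3.35 and 4.46 FPKM with PBS (log2 fold change 0.58, limma adjusted p = 0.0694). Its groups did not overlap. The member called lower was Fabp5, a fatty acid carrier also abundant in keratinocytes, at 114 ± 14.3 FPKM with rFGF4 and 227 ± 67.1 FPKM with PBS (limma adjusted p = 0.0452). Leaving out any 1 library ended that call (adjusted p 0.0570 to 0.120), as did median-centring (0.0502) and quantile normalization (0.0959). The list summed to 265.5 to 357.9 FPKM in rFGF4 libraries and 355 to 580.3 FPKM in PBS libraries. Most of that sum came from Fabp5, Krt79 and Plin2, while 8 of the 14 tested genes had a positive log2 fold change.

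Among 31 tested members of a list of other sebum lipid enzymes, 4 were called higher and 0 lower (median log2 fold change 0.23). The shares over all tested genes were 8.46% higher and 3.62% lower, and whether the list differs from them was not tested. Acsl4, an acyl-CoA synthetase with a preference for polyunsaturated fatty acids, averaged 12.4 ± 2.19 FPKM with rFGF4 and 6.72 ± 0.857 FPKM with PBS (limma adjusted p = 0.0259). Far1, the relative of Far2, measured 11.2, 11.9 and 12.6 FPKM with rFGF4 and 7.50, 7.71 and 8.87 FPKM with PBS (limma adjusted p = 0.0320). In both genes the groups were separate. The elongase Elovl5 rose by 0.77 and the malic enzyme gene Me1, a source of NADPH for lipid synthesis, by 0.51 on the log2 scale (limma adjusted p = 0.0379 and 0.0473). Acsl4 was called with 1 library left out only without rFGF4 replicate 2 (adjusted p = 0.0492, otherwise up to 0.0945), and Far1, Elovl5 and Me1 in none of those 6 fits (0.0627 to 0.129). All 4 calls were also lost with median-centred libraries (limma adjusted p 0.0641 to 0.232) and with quantile normalization (0.0539 to 0.0926), and that of Me1 without the filter on low values (0.0507).

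Fasn, Dgat2 and Elovl3 of that list did not pass. Fasn, the fatty acid synthase, was at 20.9 ± 2.11 FPKM with rFGF4 and 16.5 ± 2.09 FPKM with PBS, and Dgat2, which makes triglycerides, at 9.69 ± 1.30 FPKM with rFGF4 and 9.50 ± 0.628 FPKM with PBS (SD, n = 3 each; limma adjusted p = 0.147 and 0.926). Elovl3, an elongase of sebaceous glands and brown fat, had 12.3, 23.5 and 31.4 FPKM with rFGF4 and 12.1, 16.9 and 20.99 FPKM with PBS, and its groups overlapped (log2 fold change 0.36, limma adjusted p = 0.550). Those of Dgat2 also overlapped, while Fasn had all rFGF4 libraries above all PBS libraries and an unadjusted limma p of 0.0454.

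Scd2, Scd3 and Elovl6, relatives of Scd1 and Elovl4 named here after their values were seen, did not pass the test, unlike Far1 and Elovl5. Scd2 had 59.0, 72.0 and 41.5 FPKM with rFGF4 and 63.6, 42.7 and 40.0 FPKM with PBS, with overlap, while Scd3 had 3.42, 2.47 and 9.33 FPKM with rFGF4 and 1.77, 1.93 and 1.97 FPKM with PBS. Scd3 was apart in every library but widely spread with rFGF4, and did not pass (log2 fold change 1.14, limma adjusted p = 0.137). Elovl6, which elongates palmitate to stearate, the substrate of Scd1, averaged 77.0 ± 23.0 FPKM with rFGF4 and 39.1 ± 13.6 FPKM with PBS (limma adjusted p = 0.0709). Whether Scd1 changed by more than these genes was not tested.

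Sterol synthesis, which supplies the cholesterol that Soat1 esterifies, had 0 of 21 genes called in either direction by limma, with 4 at an unadjusted p under 0.05 (median log2 fold change 0.22). Its member with the smallest p was Msmo1, a sterol oxidase, at 17.7 ± 2.23 FPKM with rFGF4 and 12.6 ± 0.774 FPKM with PBS (limma adjusted p = 0.0526). Of all tested genes, 8.46% were called higher and 3.62% lower, and 32.1% had an unadjusted limma p under 0.05. The epidermal barrier lipid genes, among which Elovl4 and Fa2h also work, had 1 of 17 called higher and 0 lower (median 0.17). That gene was Ugcg, which makes glucosylceramide, at 25.2 ± 3.63 FPKM with rFGF4 and 14.7 ± 1.89 FPKM with PBS (limma adjusted p = 0.0295). With single libraries left out it stayed called only without rFGF4 replicate 2 (adjusted p = 0.0380, otherwise up to 0.103), and it was not called with median-centred libraries (0.0953) or quantile normalization (0.0644). With the length trend removed, 0 members of each of these 4 lists were called higher or lower by limma.

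Markers of other cell types were read beside the sebaceous genes. The 12 adipocyte markers, relevant because fat cells express Scd1 strongly, were all listed, none at 0, and summed to 264 to 296 FPKM in rFGF4 libraries and 286 to 351 FPKM in PBS libraries. Of 11 tested, 1 was called higher and 1 lower, beside 8.46% and 3.62% of all tested genes. Lpl rose (15.8 ± 3.46 FPKM with rFGF4 and 9.75 ± 0.611 with PBS, limma adjusted p = 0.0482). Ucp1 fell, from 9.01, 11.0 and 14.4 FPKM with PBS to 0.253, 0.440 and 3.28 FPKM with rFGF4 (limma adjusted p = 0.0342). Its log2 fold change of -3.72 depended on the 0.1 added before the logarithm. It was -2.64 with 1 added and -3.95 with 0.01. Lpl is the lipase that loads fat cells with lipid, and Ucp1 the uncoupling protein of brown fat. Adipoq, the adipokine gene that defines fat cells, had 20.7, 19.8 and 12.6 FPKM with rFGF4, against 8.95, 11.2 and 11.4 FPKM with PBS (limma adjusted p = 0.0709), and Plin1, of the lipid droplets of fat cells, averaged 4.61 ± 2.46 FPKM with rFGF4 and 2.80 ± 0.252 FPKM with PBS. Cfd, Fabp4 and Retn had lower means with rFGF4 (135, 54.7 and 6.06 FPKM) than with PBS (161, 78.3 and 8.16 FPKM). They were not called. Among rFGF4 libraries Scd1 was highest in replicate 3, as were the adipocyte markers Plin4, Lipe, Cidec and Ucp1. Fabp4 lay between there, and the remaining markers, Adipoq and Plin1 included, were lowest in that library. With 1 library left out Lpl was never called (0.0627 to 0.142), Ucp1 only without rFGF4 replicate 3 (0.00494, otherwise up to 0.104) and Adipoq only without that library (0.0442). Lpl also lost its call with median-centred libraries (0.162), with quantile normalization (0.133) and without the filter on low values (0.0509). The part of fat cells in the Scd1 result was not tested.

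Fibroblast markers moved with the groups: 6 of 8 were called higher (median log2 fold change 0.92), beside 8.46% of all tested genes. None was at 0, and they summed to 5187 to 5850 FPKM in rFGF4 libraries and 2940 to 3651 FPKM in PBS libraries. Pdgfra, a receptor that marks fibroblasts, averaged 23.1 ± 4.08 FPKM with rFGF4 and 10.7 ± 1.43 FPKM with PBS. The matrix gene Fn1 averaged 127 ± 15.2 FPKM with rFGF4 and 65.5 ± 3.72 FPKM with PBS. The proteoglycan Dcn was at 209 ± 27.5 FPKM with rFGF4 and 107 ± 9.24 FPKM with PBS, and Lum at 227 ± 18.4 FPKM with rFGF4 and 115 ± 21.8 FPKM with PBS (limma adjusted p 0.0157 to 0.0228 for the 4). All 4 calls were lost without PBS replicate 1 (0.0757 to 0.0865). Fn1 was called only in the 3 fits without an rFGF4 library, Pdgfra only without rFGF4 replicate 2 or PBS replicate 3, Dcn only without rFGF4 replicate 2, and Lum only without rFGF4 replicate 2 or PBS replicate 2. Lum was not called with median-centred libraries (0.0653). Their part in the values of the sebaceous genes was not tested. With the length trend removed 0 of the 8 were called.

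Hair follicle markers, the structure the glands belong to, had 0 of 16 tested genes called by limma and 0 at an unadjusted p under 0.05 (median log2 fold change -0.48). For this list and those below, the shares over all tested genes were 32.1% at an unadjusted limma p under 0.05, 8.46% called higher and 3.62% lower. The sum of the hair follicle markers ranged from 96.0 to 953 FPKM in rFGF4 libraries and from 399 to 917 FPKM in PBS libraries, with no member at 0. The smallest p was that of Lgr5, a follicle stem cell gene, at 6.20 ± 2.14 FPKM with rFGF4 and 3.99 ± 0.542 FPKM with PBS. Its log2 fold change of 0.57 ran against most of the list, as only 2 of the 16 were positive. Epidermal keratinocyte markers had 0 of 16 called by limma and 0 at an unadjusted p under 0.05 (median 0.07), and summed to 3918 to 5665 FPKM with rFGF4 and 3104 to 10554 FPKM with PBS. In that list Flg2, a filaggrin relative of the horny layer, had the smallest p (log2 fold change 0.72, limma adjusted p = 0.164). Of the 16 keratinocyte markers 10 were positive, while Krt5 (-0.48) and Krt14 (-0.41) were negative. Skeletal muscle markers had a median of -0.48, with 0 of 8 called and 1 at an unadjusted p under 0.05 by limma, Tnni2 (log2 fold change -0.87, limma adjusted p = 0.141); they summed to 1442 to 2940 FPKM with rFGF4 and 2233 to 4732 FPKM with PBS. Immune markers had a positive log2 fold change in 5 of 7 tested genes (median 0.35), with 0 of 7 called and 1 at an unadjusted p under 0.05 by limma. That gene was the neutrophil gene S100a8, whose difference was negative, at 64.6 ± 34.9 FPKM with rFGF4 and 350.1 ± 247 FPKM with PBS (limma adjusted p = 0.0567). The immune markers summed to 941 to 2146 FPKM with rFGF4 and 987 to 4016 FPKM with PBS.

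**Figure D5:**
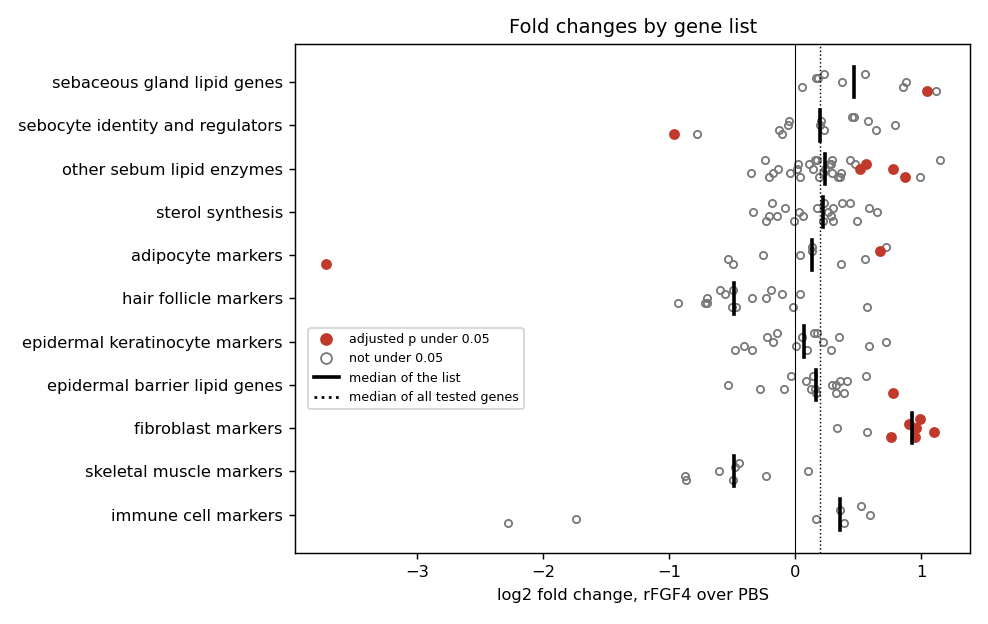
Log2 fold change (rFGF4 over PBS) of each tested gene by list, filled where the limma adjusted p is under 0.05, with the list's median (bar) and the median of all tested genes (dotted line, 0.19). The sebaceous gland lipid genes have a median of 0.46 with 1 filled point, and the fibroblast markers a median of 0.92 with 6 filled points.

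The genes whose pattern over the 6 libraries came nearest to the median pattern of the 10, out of 12885 compared, were Cers4, Rftn1, Ces1d, Vcam1, Pxmp4 and Cdr2. Their root mean square difference from it was 0.10 to 0.14 log2 units, where the median gene had 0.45 and the 10 members themselves 0.13 to 0.47. Cers4, a ceramide synthase, had 8.90, 12.4 and 15.1 FPKM with rFGF4 and 7.51, 8.10 and 10.9 FPKM with PBS. Its groups overlapped, as did those of the other 5, and none of the 6 was called (limma adjusted p 0.171 to 0.341).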

How the data were processed

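RNA was measured in 3 rFGF4 and 3 PBS skin libraries, made per the labels' protocols from poly(A)-selected RNA as strand-marked paired-end libraries. Named in the submitters' processing notes are HISAT2, StringTie, fastp and edgeR, with GRCh38, a human build, although the symbols are those of mouse; versions and roles are not given in the sources used here. The 6 deposited value columns, matched to samples by name, were taken to be the authors' FPKM; no header names the unit, which was read from fractional values whose library sums were 304717 to 319807. The deposited table also holds the authors' p-value and q-value per gene, the ratio of group means as a fold, and its log2. FPKM keep no counts, so depth is unknown, and the precision of a value is known only from 3 libraries. Genes below 1 FPKM in all libraries are not listed.

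The test, on log2(FPKM + 0.1) of genes reaching 1 FPKM in 3 or more libraries, was limma-trend (limma 3.58.1, R 4.3.3, robust empirical Bayes, two-sided, group as the only term), with Benjamini-Hochberg adjustment over all 14676 tested genes and a threshold of 0.05. Fold changes are on that scale and understate those of low genes. Exact permutation of 3 against 3 gives p = 0.1 at the smallest and was not used. GENCODE M21 on GRCm38 gave transcript lengths and positions (longest APPRIS-principal transcript; 96.0% of listed genes matched), and the length trend was removed by loess per library (span 0.3). Alternatives were other pseudocounts, filters and scalings, the replicate block and each library left out. The members and lists were chosen with earlier results of these data known. Named are all members, up to 4 called genes per list or its smallest p, 8 fixed marker genes, and the 6 nearest patterns. In simulations (3 runs, 200 changed genes) of this comparison, with 14376 genes tested, limma called 42.4% of 2-fold changes and 81.5% of changes of 2 log2 units, and 7.33 unchanged genes on average. With a length trend of 0.3 log2 units per log2 unit of length added, it called 72.0% and 92.2% of those changes and 1504 unchanged genes. That slope was set and not fitted to these libraries, so 1504 is no estimate of the false calls here. In these libraries the median log2 fold change was -0.10 at lengths near 1167 bases and 0.43 near 8371 bases. After removal of the added trend, limma called 44.0% and 81.3% of the changes and 7.00 unchanged genes. Removal of a trend of another shape was not tested. Whether these shares and numbers of calls hold where single libraries move genes together, as they did here, was not tested. The labels give no batch.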

Additional observations from a re-analysis of the deposited data

How the results depend on the processing

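Of the 10 sebaceous gland lipid genes 1, Scd1, was called higher as reported, with median-centred libraries, with quantile normalization, at a 2-fold threshold and with other pseudocounts and filters. The count was 0 with the length trend removed and 0 with the replicate block, and 0 to 1 with single libraries left out; called lower were 0 in each of these settings. All tested genes called numbered 1773 as reported, 516 at a 2-fold threshold, 755 with median-centred libraries (18.3% of them higher), 749 with quantile normalization (31.4% higher), 306 with the length trend removed, 233 with the replicate block and 156 to 890 with single libraries left out. Same-numbered libraries correlated at 0.18, -0.07 and -0.13 in their deviations from the group means, and differently numbered ones at -0.33 to 0.35. Deviations within a group of 3 sum to 0, so these correlations constrain each other. They cannot decide whether the libraries were paired. Under the block Scd1 had an adjusted p of 0.0566. The median log2 fold change of the 10 lay between 0.24 and 0.79 over the alternatives. Scd1, Far2, Elovl4, Fa2h and Soat1 stayed positive in each alternative run. Genes near 0 changed sign: Mgst1 (-0.13), Awat2 (-0.016) and Mc5r (-0.0049) with median-centred libraries, Awat2 (-0.0075) with quantile normalization, and Mc5r (-0.14) and Acsbg1 (-0.030) with the length trend removed. With single libraries left out, Mgst1 ranged from -0.14 to 0.32, Awat1 from -0.15 to 0.87, Awat2 from -0.14 to 0.54, Mc5r from -0.13 to 0.62 and Acsbg1 from -0.023 to 0.53. The cause of these changes was not tested. Requiring 5 FPKM left Awat2 and Mc5r untested, and no count model could be run because the values hold no counts.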
